A study of Ovis aries with 4 samples.

Results

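Nuclear-encoded oxidative phosphorylation genes are the genes of the cell nucleus whose proteins build the respiratory chain and the ATP synthase of mitochondria. They were found here as every gene symbol that starts with NDUFA, NDUFB, NDUFS, NDUFV, NDUFC, COX4I, COX5, COX6, COX7, UQCR or ATP5 in the deposited gene lists, which gave 73 of 26478 gene identifiers. The 73 identifiers carry 69 symbols: 3 are named ATP5MD, 2 NDUFB3 and 2 ATP5MC2, and reads of such copies can be split between them by the counting program. By role they were 7 core subunits of complex I, 28 other NDUF genes counted with complex I, 6 complex I assembly factors (NDUFAF genes, which begin with NDUFA and so meet the rule), 7 genes of complex III, 8 of complex IV and 17 of complex V.

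Complex I takes electrons from NADH, complex III passes them to cytochrome c and complex IV passes them to oxygen. These complexes pump protons across the inner mitochondrial membrane, and complex V, the ATP synthase, uses that gradient to make ATP. A few subunits are made from the mitochondrial genome inside the organelle. All others are transcribed in the nucleus, translated on cytosolic ribosomes and imported, so their finished transcripts are mostly found in the cytoplasm. Neurons depend heavily on this pathway for ion pumping and synaptic transmission.

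The material was frozen striatum, a deep forebrain region, of sheep aged 5 years, with no treatment or genetic change given in the labels. Whole cells were freed with papain and nuclei by lysing the tissue, and each suspension pooled 2 animals before droplet capture. The 4 libraries were whole cells 1 and nuclei 1 from sheep 1 and 2, and whole cells 2 and nuclei 2 from sheep 3 and 4, as the titles give them. The protocol text instead gives sheep 2 and 3 for the second whole cells suspension. On that reading both whole cells libraries would share sheep 2 and the second pool would not match its nuclei library. The pools cannot show the spread between single animals, and p-values between kinds of library measure only the spread between libraries. Those among nuclei classes come from fits with a term for the library. They measure the spread left over among class sums taken from the same nuclei libraries, with 1 estimate of the spread shared by all classes. Whole cells gave 125974 and 2512837 UMIs (unique molecular identifiers, 1 per captured RNA molecule) outside mitochondrial genes, against 69924470 and 50705635 in nuclei. Mitochondrial UMIs were 88.7% and 86.9% of the whole cells libraries and 0.779% and 0.776% of the nuclei libraries. Levels are therefore given as CPM, the UMIs of a gene per 1000000 non-mitochondrial UMIs, and in summed libraries a lower level can come from fewer cells of a type or from less RNA per cell, which cannot be told apart. The whole cells files were counted with Cell Ranger 6.0.1 and the nuclei files with Cell Ranger 7.0.0, so program version and kind of library cannot be told apart either. These versions differ in whether introns are counted by default, and the setting used is not given in the sources used here.

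The first comparison asked how much of this transcript group each kind of input recovered. The 73 genes took 1.45% (Wilson 95% interval 1.39 to 1.52) and 2.14% (2.12 to 2.16) of non-mitochondrial UMIs in whole cells 1 and 2. In nuclei they took 0.213% (0.212 to 0.214) and 0.215% (0.214 to 0.217). Both whole cells libraries lay above both nuclei libraries, and the nuclei libraries differed from each other far less than the whole cells libraries did. The mean was 1.79 ± 0.487% in whole cells and 0.214 ± 0.00178% in nuclei (SD, n = 2 each), an 8.38-fold difference of means. Nuclei minus whole cells, the mean log2 shares differed by -3.04. The exact two-sided permutation test gave p = 0.333, the smallest that 2 against 2 libraries allow. The ratio depended on the denominator: as a share of all UMIs, mitochondrial ones included, the genes held 0.164% and 0.279% of whole cells libraries against 0.211% and 0.214% of nuclei libraries, and the log2 ratio was -0.010. Most whole cells barcodes held little RNA outside mitochondrial genes, with a median of 33 and 67 such UMIs. At least 200 genes were seen in 68 of 2162 and 269 of 32500 whole cells barcodes, against 8810 of 8815 and 8720 of 8723 in nuclei. These barcodes gave 0.942% and 1.13% in whole cells and a log2 ratio of -2.27. They held 254 of 1827 and 1924 of 53754 member UMIs of whole cells, so the shares above came mostly from barcodes with fewer genes.

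Summed over genes, the gap between kinds of library differed by complex. It was widest for complex IV genes, which took 0.264% and 0.351% of the non-mitochondrial UMIs of whole cells and 0.0148% and 0.0142% of those of nuclei (log2 ratio -4.39). Complex V followed at -3.56, with 0.457% and 0.765% against 0.0497% and 0.0507%. Complex III stood at -3.14, the other complex I genes at -2.66 and the complex I core at -2.11. The assembly factors had the smallest gap at -0.48, with 0.0270% and 0.0368% in whole cells and 0.0235% and 0.0218% in nuclei. The order of the 6 roles was the same in each animal pool. It rested in part on single genes, which an alternative added after the data were seen left out. COX4I1 made up 76.3% and 70.5% of complex IV UMIs in whole cells; without it the log2 ratio was -3.39, narrower than that of complex V with all its genes (-3.30 without ATP5ME). Without NDUFAF8, 73.5% and 68.4% of assembly factor UMIs in whole cells, the assembly factors turned to 1.26. The make-up of the group thus differed between kinds of library: assembly factors were 1.86% and 1.72% of the group's UMIs from whole cells and 11.0% and 10.1% of those from nuclei. Complex IV genes made up 18.2% and 16.4% of the former and 6.97% and 6.61% of the latter.

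Gene by gene, 66 of the 73 members passed the filter on low counts, and edgeR's quasi-likelihood test with Benjamini-Hochberg adjustment over all 15781 genes called 58 of them higher in whole cells. Among all genes tested, 22.4% were called in that direction. The test called 3 members higher in nuclei, against 29.8% of all genes tested, and 5 members were not called. The median log2 fold change, nuclei over whole cells, was -3.12 over the tested members and 0.61 over all tested genes. These fold changes carry the composition factors of TMM, a scaling that assumes most genes are level between libraries. With library size alone, mitochondrial UMIs included, every fold change moves up by about the same amount: the median of all genes shifts by 3.05 and that of the members becomes -0.05. The calls then become 17 members higher in whole cells, against 3.16% of all genes tested, and 17 higher in nuclei, against 79.4% of all genes. The size of each fall is therefore best read relative to the other genes. In barcodes with at least 200 genes 42 members were higher in whole cells, against 11.7% of all genes, and 4 in nuclei, against 27.4%. There the member median was -1.37 against 1.09 over all genes tested. Without whole cells 2, where whole cells 1 is assumed to vary like the other libraries, the medians were -2.14 and 4.37, so the gap to all genes also depends on that library.

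**Figure D1:**
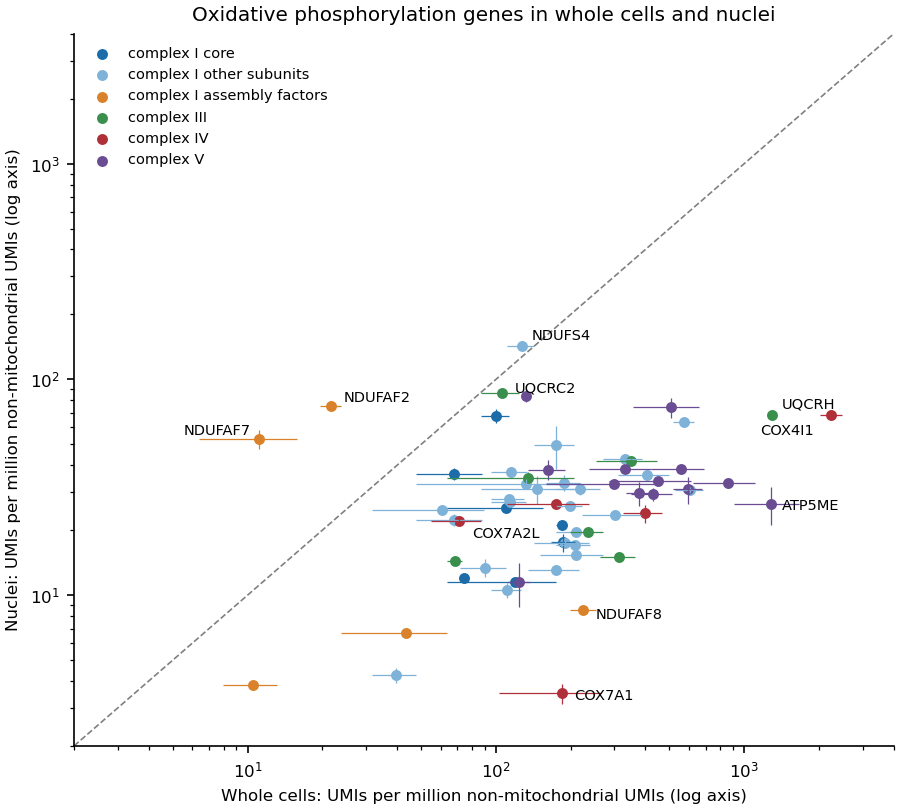
Mean CPM in whole cells (x axis, log scale) and in nuclei (y axis, log scale) for the 62 members with counts in all 4 libraries, coloured by role; lines span the 2 libraries of each kind and the dashed diagonal marks equal levels. Most points lie below the diagonal, COX7A1 and COX4I1 far below it, while NDUFAF2 and NDUFAF7 lie above it.

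Complex IV, cytochrome c oxidase, had a median log2 fold change of -3.54 over its tested members. COX4I1, the common isoform of the regulatory subunit 4, reached 2016 and 2474 CPM in whole cells 1 and 2 and 67.9 and 69.3 CPM in nuclei 1 and 2. It fell by 5.01 ± 0.58 on the log2 scale (SE, adjusted p = 2.3e-08). COX7A1, the isoform of subunit 7A known from heart and skeletal muscle, was at 103 and 265 CPM in whole cells and 3.89 and 3.12 CPM in nuclei. Its log2 fold change of -5.89 ± 0.57 (adjusted p = 8.7e-10) was the lowest of the tested members. COX6B1, a subunit on the side of the intermembrane space, went from 325 and 468 CPM to 26.3 and 21.6 CPM (-4.07 ± 0.54, adjusted p = 2.0e-07). COX7A2L, a relative of the 7A subunits that takes part in joining complexes into supercomplexes, fell least among the tested complex IV members, from 87.3 and 54.9 CPM to 23.3 and 20.9 CPM (-1.54 ± 0.40, adjusted p = 0.0017). COX6A2, the muscle isoform of subunit 6A, had at most 6 counts in any library and COX6B2 at most 3, and neither was tested. All 6 tested genes of complex IV were called higher in whole cells. One of them, COX7B2, named after its values were seen, had 0 and 16 counts in whole cells and 69 and 25 in nuclei. Its CPM in the libraries of both kinds overlapped, so that call rests on whole cells 2.

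Complex V had 12 of 14 tested members higher in whole cells, with a median log2 fold change of -3.58. ATP5ME, a small membrane subunit, was at 913 and 1659 CPM in whole cells and 31.7 and 21.1 CPM in nuclei, a log2 fold change of -5.63 ± 0.63 (adjusted p = 1.1e-08). ATP5F1E, the epsilon subunit of the rotor stalk, was at 619 and 1108 CPM against 34.6 and 31.3 CPM (-4.75 ± 0.59, adjusted p = 6.9e-08). ATP5MC2, which encodes a c-ring subunit, was at 516 and 675 CPM against 26.6 and 35.4 CPM (-4.28 ± 0.55, adjusted p = 1.2e-07). For each of these genes both whole cells libraries lay at least an order of magnitude above both nuclei libraries. ATP5F1C, the gamma subunit that turns inside the catalytic head, was at 135 and 130.1 CPM in whole cells and 78.4 and 89.9 CPM in nuclei and was not called (adjusted p = 0.21). ATP5MC1, another c-ring gene, was not seen in whole cells (0 counts in each library) and had 63 and 31 counts in nuclei; its nuclear levels of 0.901 and 0.611 CPM lie below the limit that 3 counts set in each whole cells library (23.8 and 1.19 CPM), so no fold is given.

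In complex III, 6 of 7 members were called higher in whole cells. UQCRH, the hinge protein next to cytochrome c1, reached 1318 and 1259.9 CPM in whole cells and 66.6 and 70.2 CPM in nuclei (-4.18 ± 0.55, adjusted p = 1.7e-07). UQCR10, a small subunit, was at 262 and 364 CPM against 15.7 and 14.3 CPM (-4.41 ± 0.53, adjusted p = 4.0e-08). UQCRQ, the ubiquinone-binding subunit, was at 198 and 271 CPM against 19.0 and 20.3 CPM (-3.63 ± 0.49, adjusted p = 3.0e-07). The exception was UQCRC2, a core subunit, at 87.3 and 124 CPM against 84.9 and 88.4 CPM (-0.40 ± 0.44, adjusted p = 0.46), where the libraries of the 2 kinds overlapped.

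Complex I had 6 of 7 core subunits and 25 of 26 tested other genes higher in whole cells. Among the 25 was NDUFA5, named after its values were seen, with 0 and 26 counts in whole cells and 46 and 23 in nuclei. Its libraries overlapped on the CPM scale, so that call rests on whole cells 2. NDUFV1, which binds NADH and FMN, was at 63.5 and 175 CPM in whole cells and 11.6 and 11.4 CPM in nuclei (-3.63 ± 0.48, adjusted p = 2.0e-07). NDUFS8, a core subunit of the arm that leads electrons to ubiquinone, had a log2 fold change of -3.45 (adjusted p = 3.4e-07). Among the other subunits, NDUFS5 was at 524 and 685 CPM against 29.6 and 31.7 CPM (-4.31 ± 0.55). NDUFB2 was at 135 and 216 CPM against 12.8 and 13.4 CPM (-3.85 ± 0.48). NDUFA7 was at 95.3 and 126 CPM against 9.71 and 11.4 CPM (adjusted p = 6.5e-08). With library size alone NDUFV1, NDUFS8 and NDUFA7 were no longer called, nor were UQCRQ and NDUFAF3. NDUFA4, first assigned to complex I and now regarded as a subunit of complex IV, was at 516 and 625 CPM against 61.3 and 65.1 CPM (-3.17 ± 0.52, adjusted p = 5.7e-06), while its relative NDUFA4L2 had at most 4 counts in a library. NDUFV2, a core iron-sulfur subunit, was at 87.3 and 113 CPM against 73.0 and 62.5 CPM and was not called (adjusted p = 0.20). NDUFS4, an accessory subunit whose loss causes Leigh syndrome in humans and mice, was at 111 and 143 CPM against 141 and 145 CPM (0.11 ± 0.46, adjusted p = 0.86). ATP5F1C, ATP5MC1, UQCRC2, NDUFV2 and NDUFS4, the 5 members not called, are named because there were no more, after their values were seen.

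The assembly factors, which help to build complex I but are not part of it, split evenly. NDUFAF5 had 0 and 35 counts in whole cells, or 0 and 13.9 CPM, and 82.1 and 78.0 CPM in nuclei (2.56 ± 0.51, adjusted p = 9.8e-05). NDUFAF7 had 2 and 16 counts in whole cells, or 15.9 and 6.37 CPM, and 58.0 and 47.5 CPM in nuclei (2.74 ± 0.53, adjusted p = 6.4e-05). NDUFAF2 had 3 and 49 counts in whole cells, or 23.8 and 19.5 CPM, and 76.1 and 73.8 CPM in nuclei (1.79 ± 0.46, adjusted p = 0.0016). In all 3 genes both nuclei libraries lay above both whole cells libraries, and the whole cells counts behind them are low. The call of NDUFAF2 was lost with the animal pool as a block (adjusted p = 0.066) and without nuclei 1 or nuclei 2 (0.12 and 0.066). NDUFAF8 went the other way, from 198 and 252 CPM to 8.24 and 8.80 CPM (-4.76 ± 0.51, adjusted p = 4.6e-09), a call lost in barcodes with at least 200 genes (adjusted p = 0.091), as was that of NDUFAF1 (0.91). NDUFAF3 went from 23.8 and 63.3 CPM to 6.91 and 6.39 CPM (-3.12 ± 0.44), a call lost without whole cells 2 (adjusted p = 0.32). NDUFAF1, with 1 and 33 counts in whole cells, had a log2 fold change of -1.83 (adjusted p = 0.0069), a call lost with DESeq2 (adjusted p = 0.10), with the pool as a block (0.11) and without whole cells 2, nuclei 1 or nuclei 2 (0.86, 0.08 and 0.097).

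**Figure D2:**
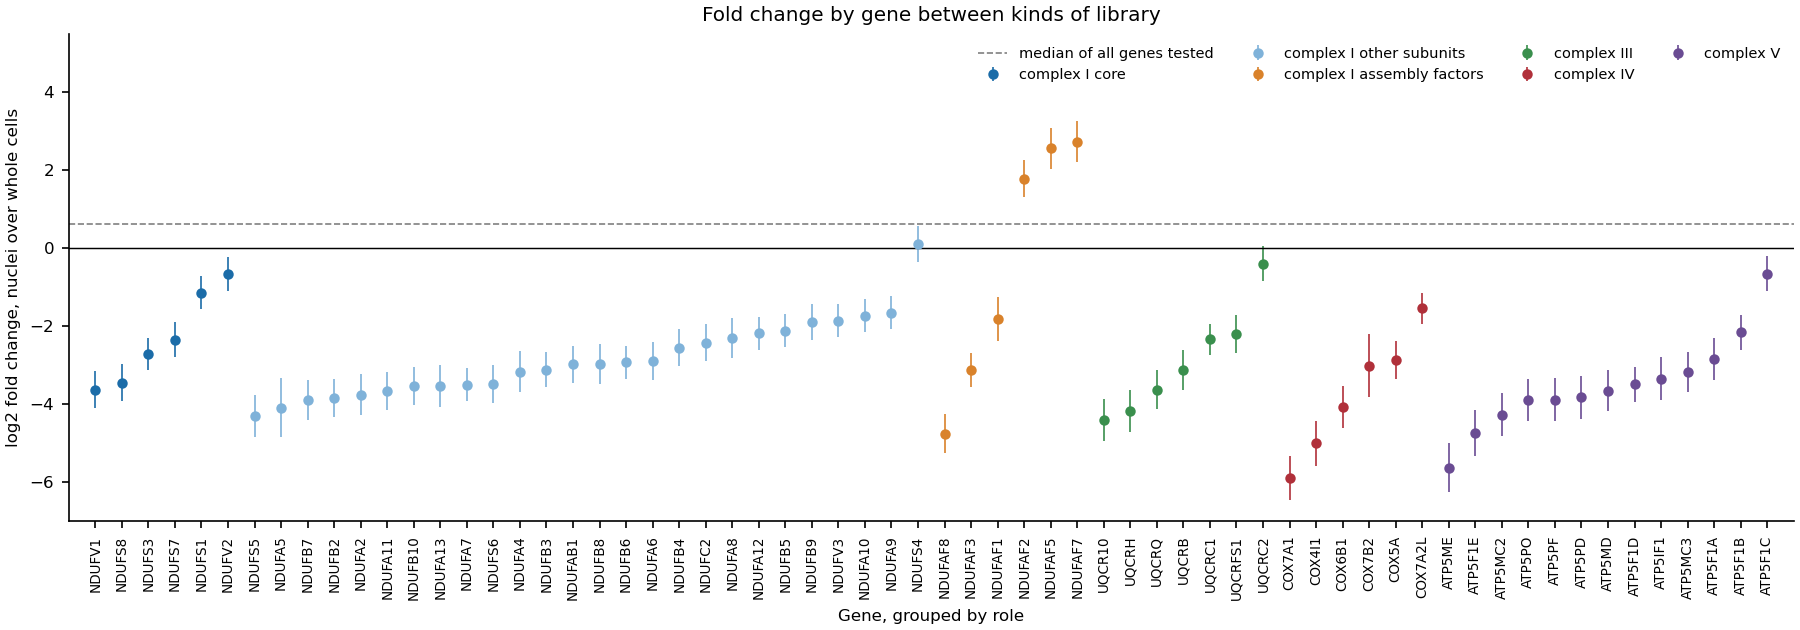
Log2 fold change, nuclei over whole cells (y axis; edgeR with TMM factors; bars are 1 standard error), of tested members with counts in whole cells (x axis), grouped and coloured by role. Only NDUFAF2, NDUFAF5, NDUFAF7 and NDUFS4 stand above 0, and the dashed line marks the median of all genes tested at 0.61.

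Over the 66 tested members, both whole cells libraries lay above both nuclei libraries for 58 on the CPM scale, against 23.9% of all genes tested. For 3 of the 65 with counts in whole cells both nuclei libraries were higher, against 46.3% of such genes tested, and 4 members overlapped. ATP5MC1, at 0 in both whole cells libraries, is not ordered here. No member had opposite directions in the pools, among the 62 with counts in all 4 libraries. Other genes of energy metabolism gave a mixed picture in the same test. Of 5 tested genes of complex II and the electron carriers, 4 were called higher in whole cells and 1 higher in nuclei (median log2 fold change -2.38). Of 16 glycolysis genes 14 were higher in whole cells and none in nuclei (-2.34). The 16 tested genes of the tricarboxylic acid cycle had 7 higher in whole cells and 4 higher in nuclei (-0.76). Assembly factors outside the rule had 13 of 29 higher in whole cells and 6 higher in nuclei (-0.91). Regulators of mitochondrial gene expression, such as the transcription factors that act on these genes, had 1 of 13 higher in whole cells and 7 higher in nuclei (1.74). All 53 tested ribosomal protein genes were higher in whole cells, with a median of -5.66.

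The second comparison asked how the same genes vary among the cell classes that the nuclei libraries resolve. Of 15721 nuclei kept, 14401 fell into 6 classes named from marker genes. The projection neurons of the striatum are medium spiny neurons, and nuclei with their markers numbered 1230 and 1220 in nuclei 1 and 2. Interneuron-like nuclei numbered 159 and 215, oligodendrocyte-like 3713 and 3776, oligodendrocyte precursor-like 575 and 686, astrocyte-like 696 and 626 and microglia-like 750 and 755. The member genes, mitochondrial genes and ribosomal protein genes were left out of clustering. In 3 of the 12 clusters behind these classes no marker of the class stood among the 10 leading genes. The largest oligodendrocyte-like cluster was not the same in each library: cluster 3 had 3034 and 1436 nuclei and cluster 4 had 154 and 1784. The interneuron-like class joined cluster 11 (61 and 62 nuclei, led by NPY) and cluster 15 (98 and 153), and its make-up changed with the settings. At resolution 1.0 the cluster that raised SST and NPY held 22 and 30 nuclei. With at least 500 genes per nucleus the class held a cluster of 202 and 269 nuclei that also raised CHAT and SLC5A7.

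Among the 6 compared classes, microglia-like nuclei gave the group the largest part of their non-mitochondrial UMIs, at 0.348% in nuclei 1 and 0.344% in nuclei 2. Clusters too small to compare were higher when summed over both libraries, at 0.392% in 53 fibroblast-like and 0.373% in 19 lymphocyte-like nuclei. Of the compared classes, astrocyte-like nuclei followed at 0.298% and 0.275%, and oligodendrocyte-like nuclei at 0.265% and 0.276%, which overlap. Interneuron-like nuclei were at 0.342% and 0.224% and spanned most of the range. Oligodendrocyte precursor-like nuclei were at 0.212% and 0.237%. Medium spiny neuron-like nuclei were lowest, at 0.175% and 0.173%, below every other class in both libraries. Per nucleus the order was different: medium spiny neuron-like nuclei averaged 60.8 and 38.4 member UMIs per nucleus, against 6.16 and 5.24 in microglia-like nuclei. The median UMI count was 31701.5 and 17799 in spiny neuron-like nuclei and 1658 and 1391 in microglia-like nuclei.

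**Figure D3:**
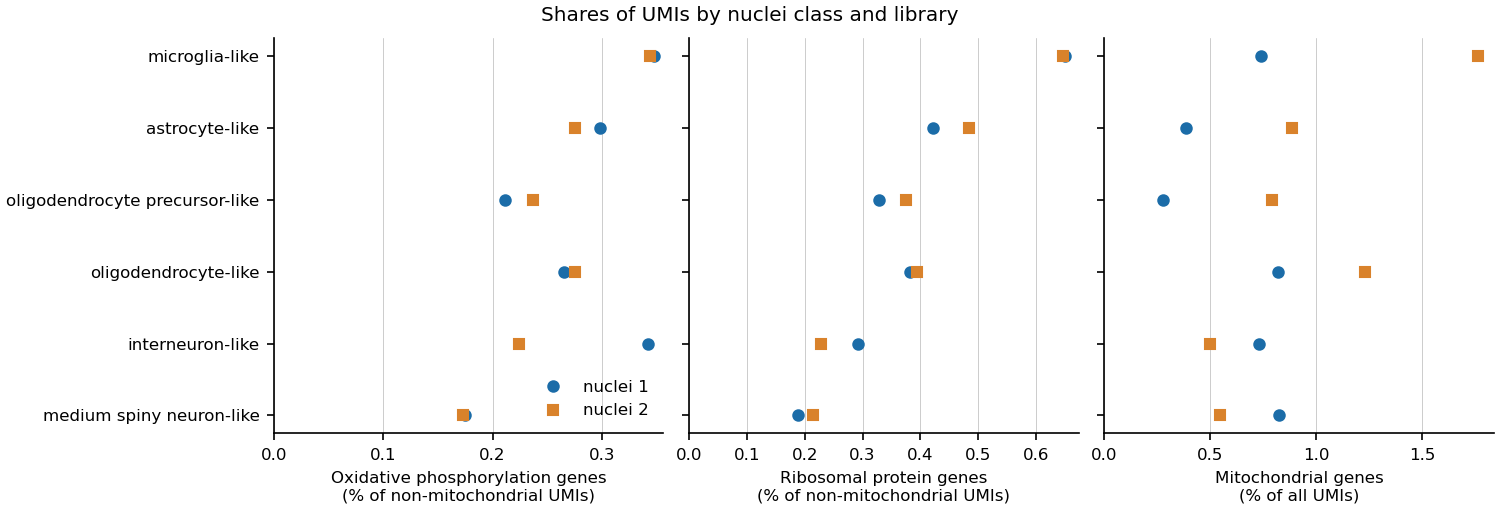
Share of UMIs (x axes, percent) from the member genes, from ribosomal protein genes and from mitochondrial genes in each nuclei class (y axis), 1 point per library. The member share runs from 0.173% in medium spiny neuron-like to 0.348% in microglia-like nuclei, and ribosomal protein genes are also lowest in the former and highest in the latter.

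Ribosomal and mitochondrial shares followed this order only in part. Ribosomal protein genes, whose transcripts are also mainly cytoplasmic, took 0.188% and 0.215% of non-mitochondrial UMIs in medium spiny neuron-like nuclei and 0.651% and 0.648% in microglia-like nuclei. In interneuron-like nuclei they took 0.292% and 0.227%, below every glial class, although the member share there was second highest in nuclei 1. Mitochondrial genes, which are not transcribed in the nucleus, took 0.827% and 0.547% of all UMIs in spiny neuron-like and 0.739% and 1.76% in microglia-like nuclei, so the direction differed between libraries. Within classes, nuclei above the class median of mitochondrial percent had the larger member share in 12 of 12 combinations of class and library; in oligodendrocyte-like nuclei the shares were 0.285% against 0.248% in nuclei 1 and 0.301% against 0.257% in nuclei 2. Nuclei above the class median of UMIs had the smaller member share in 12 of 12 combinations. In medium spiny neuron-like nuclei these shares were 0.147% against 0.240% in nuclei 1 and 0.144% against 0.256% in nuclei 2. The part that depth and mitochondrial percent have in the differences between classes was not tested.

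**Figure D4:**
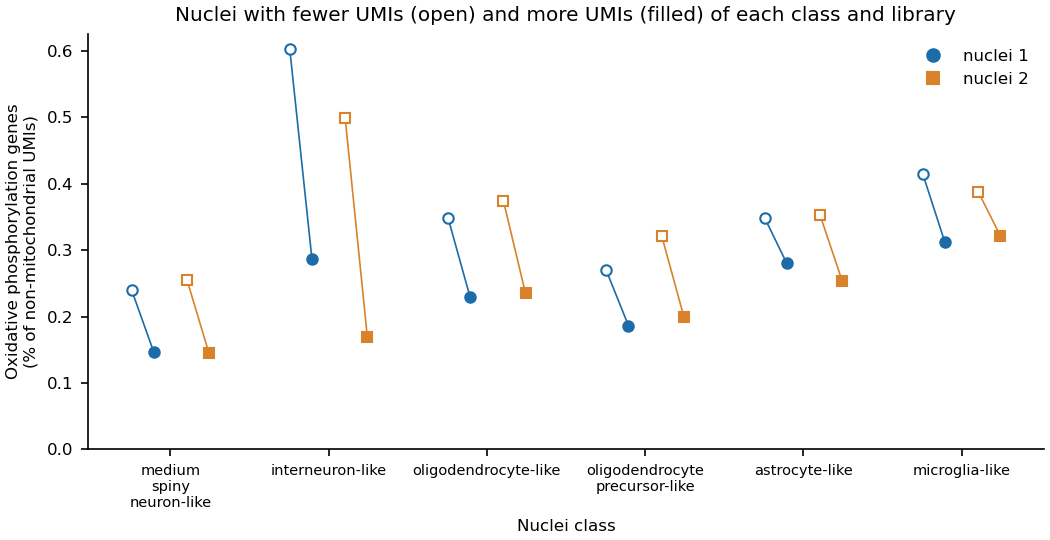
Member share of non-mitochondrial UMIs (y axis, percent) in nuclei at or below (open) and above (filled) the median UMI count of their class and library (x axis: class). The filled point is lower in all 12 combinations, and by most in interneuron-like nuclei, from 0.603% to 0.287% in nuclei 1 and from 0.499% to 0.170% in nuclei 2. That class joins clusters with a median of 2441 and 17879 UMIs, so the split can partly separate its clusters.

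Counts summed per class and library were then tested with edgeR, with the library as a block and adjustment over 12865 genes; 63 members passed the filter. A difference among the 6 classes was called for 47 of the 63, while 87.6% of all genes tested were called. By role, 4 of 7 complex I core subunits, 16 of 25 other complex I genes, 5 of 6 assembly factors, 5 of 7 genes of complex III, 5 of 5 of complex IV and 12 of 13 of complex V were called. On the CPM scale the highest of the 47 was in microglia-like nuclei for 23 members and in interneuron-like nuclei for 15, and the lowest was in medium spiny neuron-like nuclei for 34. These ranks rest on the mean of both libraries. Interneuron-like nuclei were highest for 21 members in nuclei 1 alone and for 4 in nuclei 2 alone, and microglia-like nuclei for 19 and 33. Medium spiny neuron-like nuclei were lowest for 29 and 36. Without the library block 31 members were called, against 77.3% of all genes.

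Between neurons (the mean of both neuron classes) and glia (the mean of the 4 glial classes), 9 members were higher in neurons, against 32.6% of all genes, and 16 were lower, against 31.9% of all genes. The median log2 difference was 0.00 over members and -0.05 over all genes. With library size alone the split was 1 higher, against 25.2% of all genes, and 27 lower, against 43.5%, with the median of all genes shifted by -0.26. COX7A2L was highest in neurons relative to glia: 26.1 and 24.6 CPM in medium spiny neuron-like and 28.7 and 20.3 CPM in interneuron-like nuclei, against 11.6 and 11.8 CPM in oligodendrocyte-like nuclei. Precursor-like nuclei were at 15.7 and 14.4 CPM and astrocyte-like nuclei at 20.5 and 15.8 CPM. Microglia-like nuclei, at 24.8 and 17.4 CPM, came close to the neuron classes. Its log2 difference was 0.88 ± 0.11 (SE, adjusted p = 3.9e-05). Next came NDUFAF8 at 0.48, ATP5F1D, the delta subunit of the rotor stalk, at 0.47, UQCRFS1, the Rieske iron-sulfur protein of complex III, at 0.46 and ATP5MC3, a c-ring gene, at 0.45 (adjusted p = 0.023, 0.028, 0.0039 and 0.016). Interneuron-like nuclei lay above medium spiny neuron-like nuclei in both libraries for each of these 4 genes, and the latter lay within or below the range of the glial classes. UQCRFS1 was at 72.2 and 47.5 CPM in interneuron-like, 28.8 and 34.5 CPM in spiny neuron-like and 27.9 to 44.1 CPM in glial nuclei. ATP5MC3 was at 100.5 and 50.1 CPM in interneuron-like, 31.1 and 34.1 CPM in spiny neuron-like and 33.4 to 60.2 CPM in glial nuclei. With library size alone these 4 were no longer called, at 0.23, 0.21, 0.21 and 0.20. Without the library block NDUFAF8 and ATP5F1D were not called (adjusted p = 0.053 and 0.17). In nuclei 2 alone, on the scale of log2(CPM + 1) without TMM factors, ATP5F1D was at -0.18 and ATP5MC3 at -0.0043. NDUFC2 and UQCRH, called higher in neurons as well and named after their values were seen, were also below 0 there (-0.27 and -0.18). On this scale 4 of the 9 thus pointed in opposite directions in the libraries. Leaving out the TMM factors moves values of neurons over glia down, by -0.26 for the median of all genes above, so the scale alone can turn such signs. With doublets kept 17 members were higher and 12 lower, against 33.6% and 32.6% of all genes.

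COX7A1 was lowest in neurons relative to glia. It was at 17.8 and 12.9 CPM in astrocyte-like nuclei (46 and 31 counts), 8.13 and 6.16 CPM in oligodendrocyte-like, 7.70 and 9.08 CPM in oligodendrocyte precursor-like and 8.27 and 3.48 CPM in microglia-like nuclei. In medium spiny neuron-like nuclei it was at 0.937 and 0.850 CPM (40 and 23 counts), below every glial class in both libraries. Interneuron-like nuclei, the other neuron class, were at 5.82 and 2.33 CPM, above spiny neuron-like nuclei and nearer to microglia-like nuclei. The log2 difference of neurons over glia was -1.95 ± 0.23 (adjusted p = 2.7e-05), and COX7A1 and COX7A2L thus moved in opposite directions. NDUFAF2 (-0.87), NDUFA13 (-0.86; also known as GRIM-19), NDUFS5 (-0.65) and ATP5ME (-0.61) were also lower in neurons (adjusted p = 3.3e-04, 2.0e-04, 1.8e-04 and 5.6e-04), though ATP5ME was not called without the library block (adjusted p = 0.11).

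**Figure D5:**
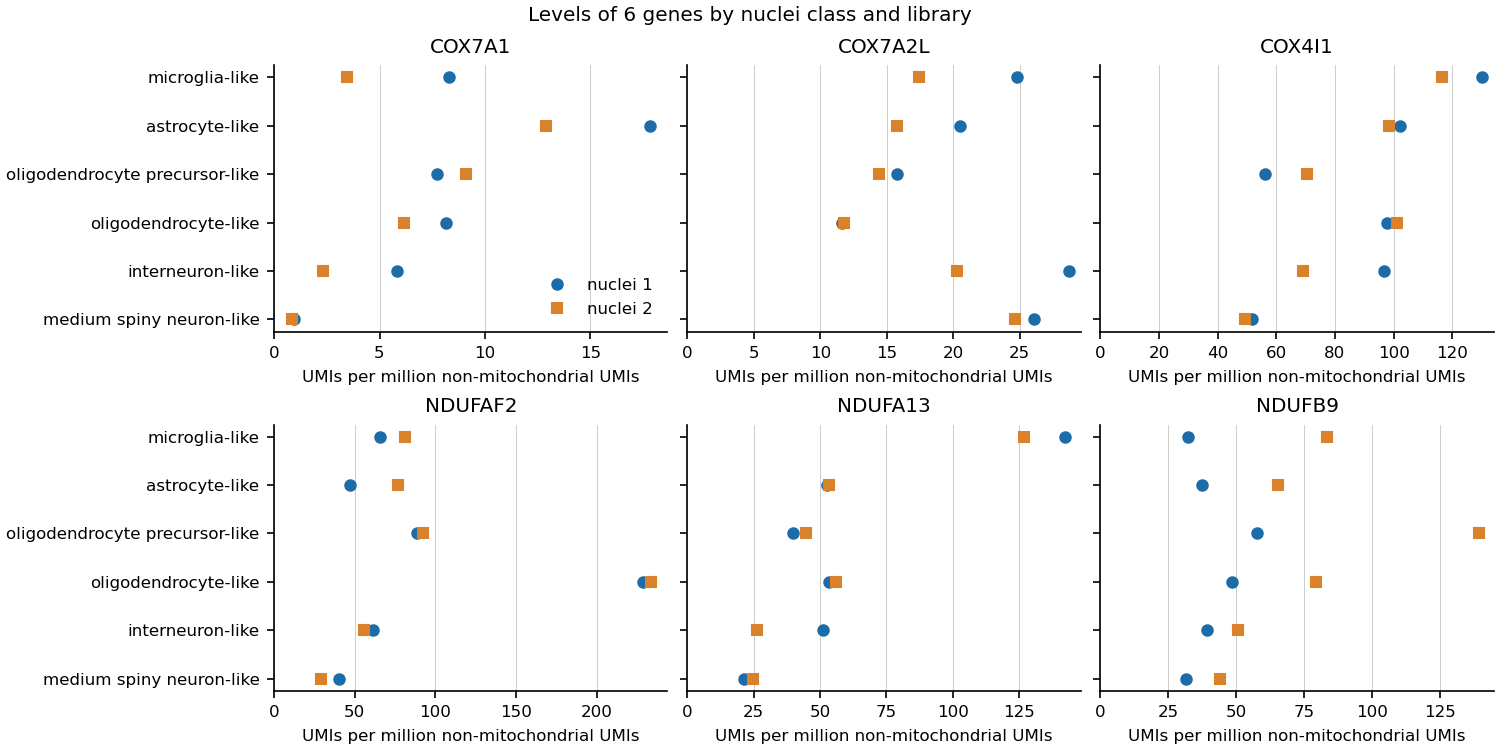
CPM (x axes) of 6 named genes in each nuclei class (y axis), 1 point per library. COX7A1 is lowest and COX7A2L among the highest in neurons, NDUFAF2 stands out in oligodendrocyte-like nuclei at 229 and 234, NDUFA13 in microglia-like nuclei at 142 and 127, and NDUFB9 is higher in nuclei 2 than in nuclei 1 in all 6 classes.

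The comparison of the most numerous neuron and glial classes was more lopsided. In medium spiny neuron-like against oligodendrocyte-like nuclei 1 member was higher, against 31.7% of all genes, and 28 were lower, against 33.2% of all genes. The member median was -0.41 and the median of all genes -0.06. Complex V had 9 of 13 tested members lower (median -0.73), complex IV 3 of 5, the other complex I genes 12 of 25 and complex III 2 of 7. COX7A2L was the member called higher (1.30 ± 0.16, adjusted p = 3.8e-05). COX7A1 was lower by -2.80 ± 0.31 (adjusted p = 1.3e-05) and NDUFB7, an accessory subunit of complex I, by -1.30 ± 0.18 (adjusted p = 6.5e-05). COX4I1 was at 51.8 and 49.2 CPM in medium spiny neuron-like and 97.8 and 101 CPM in oligodendrocyte-like nuclei (-0.80 ± 0.15, adjusted p = 6.5e-04). NDUFA4 was at 39.9 and 44.8 CPM against 95.4 and 101 CPM (-1.03 ± 0.25, adjusted p = 0.0042).

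NDUFAF2 had the widest range over classes of the 6 assembly factors, 6.67-fold between the highest and the lowest class mean. It was at 229 and 234 CPM in oligodendrocyte-like nuclei and at 88.3 and 92.0 CPM in their precursors. The remaining classes lay between 28.8 CPM, in medium spiny neuron-like nuclei of nuclei 2, and 80.9 CPM, in microglia-like nuclei of nuclei 2. The log2 difference was -2.54 ± 0.22 for medium spiny neuron-like over oligodendrocyte-like nuclei (adjusted p = 2.3e-06) and -1.34 ± 0.22 for precursor-like over oligodendrocyte-like nuclei (adjusted p = 5.5e-04). Within the oligodendrocyte-like class, summed over both libraries, its level was 197 CPM in cluster 3, 206 CPM in cluster 4 and 366 CPM in cluster 13, which is led by ENPP6. In the RefSeq sheep assembly ARS-UI_Ramb_v3.0 NDUFAF2 overlaps another gene, as do NDUFAF7 (PRKD3), NDUFS4 and 10 further members of the 55 matched once by symbol. Whether the counts use strand or introns is not given in the sources used here, so reads of overlapping genes cannot be told apart.

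Between glial classes fewer members differed. Precursor-like against oligodendrocyte-like nuclei had 2 members higher, against 23.5% of all genes, and 13 lower, against 21.2% of all genes (member median -0.30, all genes -0.06). Those higher were NDUFS4, at 195 and 201 CPM against 117 and 139 CPM (0.65 ± 0.14, adjusted p = 0.0029), and NDUFB9 (0.57 ± 0.21, adjusted p = 0.046). After NDUFAF2, the largest fall was that of NDUFB7 (-1.05). NDUFB9, an accessory subunit of complex I, was higher in nuclei 2 than in nuclei 1 in all 6 classes, with 57.8 and 139 CPM in precursor-like nuclei and 31.5 and 44.0 CPM in medium spiny neuron-like nuclei, and its call was lost without the library block (adjusted p = 0.30), with library size alone (0.052), at resolution 1.0 (0.053) and without the low-count filter (0.055).

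Astrocyte-like nuclei had 2 members above the mean of the other glia, against 22.6% of all genes, and 6 below, against 13.8% of all genes. The 2 were COX7A1 (0.94 ± 0.27, adjusted p = 0.019) and ATP5PF, coupling factor 6 of the ATP synthase stalk, at 97.2 and 84.0 CPM in astrocyte-like nuclei (0.54 ± 0.17, adjusted p = 0.027); ATP5PF overlaps GABPA in the RefSeq assembly. Both calls were lost without the library block (adjusted p = 0.085 and 0.069). The lowest were NDUFAF2 (-1.07), NDUFAF7 (-0.75) and NDUFB9 (-0.62). The NDUFB9 call was lost without the library block (adjusted p = 0.25), with library size alone (0.12), at resolution 1.0 (0.075) and without the astrocyte-like cluster led by TOP2A (0.056). Without that cluster 3 members were higher and 3 lower, against 21.8% and 13.9% of all genes. The cluster held 225 and 124 nuclei and was named from AQP4, GFAP and SLC1A3, none of them among its leading genes, which include TOP2A and NDC80, genes of cell division. At resolution 1.0 a like cluster stayed unnamed. With doublets kept, and with at least 500 genes per nucleus, a smaller unnamed cluster was led by TOP2A and raised PDGFRA, a precursor marker. With library size alone the split was 4 higher and 2 lower, against 26.7% and 7.06% of all genes.

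Microglia-like nuclei had 7 members above the mean of the other glia, against 25.7% of all genes, and 5 below, against 29.6% of all genes. NDUFA13 led them, at 142 and 127 CPM in microglia-like nuclei and between 39.8 and 56.0 CPM in the other glial classes (1.07 ± 0.17, adjusted p = 3.4e-04). NDUFAF3 (0.97 ± 0.28, adjusted p = 0.012) and NDUFB2 (0.73 ± 0.21, adjusted p = 0.012) followed, and both calls were lost with doublets kept (adjusted p = 0.066 and 0.51). NDUFAF5, at 51.1 and 69.6 CPM against 77.2 to 125 CPM in the other glial classes (adjusted p = 0.0010), NDUFAF2 (-0.94) and COX7A1 (-1.08) were lower; the COX7A1 call was lost without the library block (adjusted p = 0.085) and with library size alone (0.14). With doublets kept 1 member was higher and 4 were lower, against 21.1% and 19.7% of all genes. That setting had a microglia-like cluster of 709 and 734 nuclei and another of 229 and 261 nuclei. The latter had CD163, MSR1 and IL1B among its leading genes, and the main setting had no such cluster. The microglia-like class thus differed in make-up between these settings. Scaling by library size alone gave 28 higher and 2 lower, against 37.5% and 21.5% of all genes, with the median of all genes shifted by 0.36. Of 53 ribosomal protein genes 27 were higher in the same contrast and none lower (median 0.35).

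The other lists of energy metabolism were counted in the same class contrasts. In medium spiny neuron-like over oligodendrocyte-like nuclei 8 of 15 glycolysis genes were higher and 3 lower (median 0.83), and 7 of 12 regulators of mitochondrial gene expression were higher and 2 lower (0.49). Genes of the tricarboxylic acid cycle had 4 of 16 higher and 5 lower (-0.12), complex II and the carriers none of 5 higher and 2 lower (-0.41), and assembly factors outside the rule 6 of 29 higher and 8 lower (-0.31). In neurons over glia, 9 of 15 glycolysis genes were higher and 3 lower (0.48), and 49 of 53 ribosomal protein genes were lower and none higher (-0.71). No difference between these lists was tested.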

How the data were processed

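The authors deposited raw UMI counts, 1 matrix of genes by barcodes for each of the 4 libraries, with lists of gene names. Cell Ranger 6.0.1 (whole cells) and 7.0.0 (nuclei) made the counts per the file headers; the submitters' processing notes also name Cell Ranger 2.1.1 and STAR 2.7.2a. Genome build, annotation and intron counting are not given in the sources used here. The member rule, gene lists and markers were chosen with earlier results of these data known.

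Each library's counts were added up over its deposited barcodes and tested with edgeR 4.0.16 (R 4.3.3; TMM, filterByExpr, quasi-likelihood, adjusted p under 0.05). Titles pair the libraries by animal pool, and same-pool deviations correlated at -0.062 over 1765 genes; the kinds were compared without the pool as a block, classes with it. DESeq2 1.42.0 was an alternative. The edgeR tests of the kinds of library and of neurons over glia were also run on simulated counts, and the other tests were not.

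Nuclei were kept from 200 genes upwards if no more than 5% of their UMIs were mitochondrial. Scrublet called 390 doublets in nuclei 1 and 0 in nuclei 2, where it did not work, so the top 8% of scores, 696 and 671 nuclei, were removed. With these nuclei kept, a further microglia-like cluster appeared, so the main microglia-like class can lack part of these cells. The nuclei left after removal were clustered with scanpy 1.11.5 (2000 variable genes, 30 components, Leiden resolution 0.5). A cluster was named from at least 3 markers raised 2-fold above the mean of the other clusters, with thresholds set after the data were seen; 4 of 18 clusters stayed unnamed, and classes with under 100 nuclei in a library were not compared. At most 87 barcodes were shared between libraries. Intervals are Wilson 95% intervals and cover counting error only, as does the limit of 3 counts.

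Named genes were, by role, the 3 members with the smallest adjusted p among those higher in whole cells, every member higher in nuclei, the 5 largest changes each way in neurons against glia, the 3 largest each way in other contrasts, and the COX4I, COX6A, COX7A and NDUFA4 families. One member that this rule names is included in counts and sums and is not reported here by itself.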

Additional observations from a re-analysis of the deposited data

Results flagged for a closer look

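Of the 9 members called higher in neurons than in glia, 4 pointed in opposite directions in the nuclei libraries when each was taken alone, on the scale of log2(CPM + 1) without TMM factors. ATP5F1D was at 0.52 in nuclei 1 and -0.18 in nuclei 2. ATP5MC3 was at 0.35 in nuclei 1 and -0.0043 in nuclei 2. NDUFC2 was at 0.55 and -0.27, and UQCRH at 0.26 and -0.18. None of the 16 members called lower in neurons, and none called in the other class contrasts, did so. Leaving out the TMM factors moves all values of neurons over glia down. Small rises can then change sign and falls cannot, so these signs do not show a disagreement between libraries. The difference between libraries was not tested. Nuclei of the 4 unnamed clusters entered no class comparison, and the members took 0.237%, 0.347%, 0.319% and 0.255% of their non-mitochondrial UMIs in clusters 1, 5, 7 and 14, above the limit that a count of 0 allows and within the range of the compared classes.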

How the results depend on the processing

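The kinds of library gave 58 members higher in whole cells and 3 higher in nuclei, library size alone gave 17 and 17 (3.16% and 79.4% of all genes), and barcodes with at least 200 genes 42 and 4 (11.7% and 27.4%); with library size alone NDUFAF1 turned to 1.28. Leaving out 1 library gave 46 to 61 and 2 to 3, the pool as a block gave 50 and 2, and DESeq2 gave 54 and 3. The log2 ratio of member shares moved to -0.010 over all UMIs and -2.27 in barcodes with at least 200 genes, and lay between -3.32 and -2.76 with 1 library left out; within the pools, the paired ratios were -2.77 and -3.31. Without NDUFAF8 the summed assembly factors reversed to 1.26. In the class contrasts below, counts are given as higher and lower in the first class, and percentages in brackets are shares of all genes tested. Where a count in this paragraph has no such share beside it, it shows only how the number of calls changed. It does not show whether members changed more than other genes. Without the replicate block 31 members differed among classes (77.3%) and 5 were higher in neurons. Astrocyte-like nuclei then had 0 higher by edgeR (2 at an unadjusted p under 0.05, and 2 by DESeq2 with the block) and 3 lower. Microglia-like nuclei had 2 lower, and precursors against oligodendrocyte-like nuclei 1 higher and 7 lower. With library size alone neurons against glia had 1 higher and 27 lower (25.2% and 43.5%) and astrocyte-like nuclei 4 and 2 (26.7% and 7.06%). Microglia-like nuclei had 28 and 2 (37.5% and 21.5%), and precursors 1 higher. Without the low-count filter neurons had 15 higher and 9 lower, and precursors 1 and 23. With doublets kept neurons had 17 higher (33.6%), medium spiny neuron-like nuclei 3 higher, astrocyte-like nuclei 3 lower and microglia-like nuclei 1 higher (21.1%). DESeq2 gave 3 higher in medium spiny neuron-like and 3 lower in astrocyte-like nuclei; resolution 1.0 gave 2 higher in the former, 3 lower in the latter and 1 higher in precursors; at least 500 genes per nucleus gave 3 higher in medium spiny neuron-like nuclei. Without the astrocyte-like cluster led by TOP2A, an alternative chosen after seeing the data, 3 were lower in astrocyte-like nuclei (13.9%). Of 450 values for the 51 named results under alternatives, 411 kept direction and side of the threshold, 38 lost the call and 1 reversed. The cause of these changes was not tested. Whole cells 1 held 125974 non-mitochondrial UMIs, so 3 counts, the limit for a gene at 0 there, are 23.8 CPM.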
